A study of Mus musculus with 12 samples.

Results

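The E2F transcription factors were followed at the mRNA level in C2C12 cells, a mouse myoblast line, through the genes E2f1 to E2f8, their dimerisation partner Tfdp1 and the pocket protein gene Rbl1. These 10 members were chosen by gene symbol from the 54532 genes of the deposited table, and each symbol named 1 gene. Cells were transfected with 30 nM of a non-targeting siRNA (siCONTROL), of an siRNA to Keap1 (siKEAP1), of an siRNA to Ccnf (siCCNF), or of both targeting siRNAs (siKEAP1/siCCNF). RNA was harvested 48 h later from 3 libraries in each of the 4 groups. KEAP1 is the substrate adaptor through which a CUL3 ubiquitin ligase marks the antioxidant factor NRF2 for degradation, and CCNF (cyclin F) is a substrate adaptor of a CUL1 ubiquitin ligase. The groups share this 1 line, labelled as myoblasts, no sample was labelled as differentiated, and the labels number the libraries as biological replicates. The labels and the study's methods differ on the serum content of the growth medium. Neither source says which Ccnf siRNA was sequenced, or whether the 30 nM of the double depletion is a total.

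E2F proteins bind promoters of genes for DNA replication and cell-cycle entry, mostly as heterodimers with a DP protein such as TFDP1. E2F1, E2F2 and E2F3 are known as activators that are held in check by RB1, while E2F4 and E2F5 act mainly with the pocket proteins RBL1 and RBL2 in repression. E2F6 represses with polycomb proteins and does not bind pocket proteins, and the atypical E2F7 and E2F8 repress without a DP partner. In myoblasts the RB pathway is known for linking cell-cycle exit to differentiation. Cyclin F has been linked in other cells to the degradation of activator and atypical E2F proteins, which an mRNA measurement does not see.

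Several E2F family genes carry E2F-like letters near their own starts, and these are shown because the members were compared here as a family that could share control elements. RefSeq promoter windows (GRCm38.p6, 250 bases before to 50 after a start) were found for 8 of the 10 members, in 11 windows. The motif TTTNNCGC, searched on both strands, was present in 6 of these 11 windows and in 5.17% of all 32851 windows. The 6 windows belong to 5 members, and both windows of Tfdp1 overlap and hold the same match. In the stretches of 60 bases below, written on the strand of the gene, capitals mark matches to this motif or to its reverse complement.
E2f2 (chr4:136172244-136172303, plus strand): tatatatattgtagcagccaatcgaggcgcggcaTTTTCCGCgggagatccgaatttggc
E2f3 (chr13:29986041-29986100, minus strand): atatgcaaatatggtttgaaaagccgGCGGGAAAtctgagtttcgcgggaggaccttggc
E2f7 (chr10:110745215-110745274, plus strand): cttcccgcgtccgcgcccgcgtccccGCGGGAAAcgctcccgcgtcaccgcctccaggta
Tfdp1 (chr8:13338682-13338741, plus strand): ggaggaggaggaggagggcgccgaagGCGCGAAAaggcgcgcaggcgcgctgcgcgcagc
Rbl1 (chr2:157204519-157204578, minus strand): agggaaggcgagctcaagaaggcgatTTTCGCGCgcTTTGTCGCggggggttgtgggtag
A second match of E2f2 (TTTGGCGC) began 39 bases after the start, outside the stretch. No such match was found in the windows of E2f1, E2f6 and E2f8, which says only that these letters are not in these 300 bases. The E2f1 window (chr2:154569377-154569676, minus strand) lies inside the gene's deposited coordinates and does not reach their start at 154569892. The E2f2 window with the matches (chr4:136172024-136172323, plus strand) ends before that gene's deposited start at 136172394. Bases after the start of this E2f2 window were not found in a reference transcript of the gene, while those of the other windows were. The letters TTTGAA, the core of the cell-cycle homology region read by MuvB complexes, were found in windows of E2f2, E2f3 and E2f8, and in 17.9% of all windows. The letters TGACNNNGC, the core of the antioxidant response element bound by NRF2, were in no member's window and in 12.4% of all windows. Both were searched on both strands, no match to one motif overlapped a match to another, and all matches are descriptions of letters, not of bound sites.

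The libraries held between 18464209 and 37743198 counts assigned to genes, and every siCCNF library was deeper than every siCONTROL library, so values are given as CPM (counts scaled to the TMM-adjusted library size, so that libraries of unequal depth can be compared) and tested on the counts. All 10 members passed the filter on low counts, with between 432 and 5876 counts in a library. Both siRNAs lowered their targets: Keap1 stood at 14.4% of its control level after siKEAP1 and 27.5% after siKEAP1/siCCNF, and Ccnf at 25.3% after siCCNF and 30.2% after siKEAP1/siCCNF. Ccnf itself was also lower after siKEAP1, at 73.2% of control (log2 fold change -0.45, adjusted p = 0.000258), and the part of this in the siKEAP1 values below was not tested. In siCONTROL replicate 1 and siKEAP1/siCCNF replicate 3, the departure of genes from their group's mean was related to gene length across the genes tested (Pearson r = -0.305 and -0.276), and member calls that change without these 2 libraries are given with and without them. More genes were called without them in every comparison. In either direction, 7558, 8487 and 7589 of 15545 genes were called after siKEAP1, siCCNF and siKEAP1/siCCNF against siCONTROL. With all libraries, 3083, 3396 and 3119 of 15122 genes were higher, and 3050, 3851 and 3568 lower. The myoblast genes Myod1 (227 CPM), Myf5 (86.3 CPM), Cdh15 (152 CPM) and Itga7 (297 CPM) were present in siCONTROL cells. Of the defining genes of other cell types, Adipoq, Plin1, Sp7, Ibsp, Ptprc, Cd3e, Pecam1, Kdr, Epcam, Krt8 and Krt18 were too low to be tested. Summed over each list, osteoblast, leukocyte, endothelial and epithelial markers lay between 0.0268 and 10.1 CPM in any library, and adipocyte markers between 17.1 and 56.9 CPM, nearly all of it Cebpa.

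To place the members on a common scale, their levels were compared as FPKM, which divides reads by gene length and library size. In siCONTROL cells Tfdp1 was the most abundant at 68.8 ± 2.17 FPKM (SD, n = 3), followed by E2f1 at 23.2 ± 1.41 FPKM and E2f4 at 17.8 ± 0.948 FPKM. E2f5 (14.2 FPKM), Rbl1 (13.6 FPKM) and E2f8 (13.3 FPKM) came next and overlapped one another in the order of their libraries. E2f3 (9.75 FPKM) and E2f2 (9.66 FPKM) overlapped as well, and E2f6 (7.83 FPKM) and E2f7 (6.40 FPKM) were lowest. This order changed with depletion. After siKEAP1 E2f6 stood at 12.6 ± 1.18 FPKM, in the range of E2f5 and Rbl1, whereas E2f3 (4.69 ± 0.0516 FPKM) and E2f7 (3.88 ± 0.0768 FPKM) were the lowest members. After siCCNF the pocket-dependent repressors E2f4 (20.1 ± 0.907 FPKM) and E2f5 (19.9 ± 1.23 FPKM) followed Tfdp1 and overlapped each other, and both lay above E2f1 (10.9 ± 0.582 FPKM). In siKEAP1/siCCNF cells E2f4 (21.7 ± 0.415 FPKM) and E2f5 (18.5 ± 0.0454 FPKM) were again above E2f1 (12.6 ± 1.76 FPKM).

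**Figure D1:**
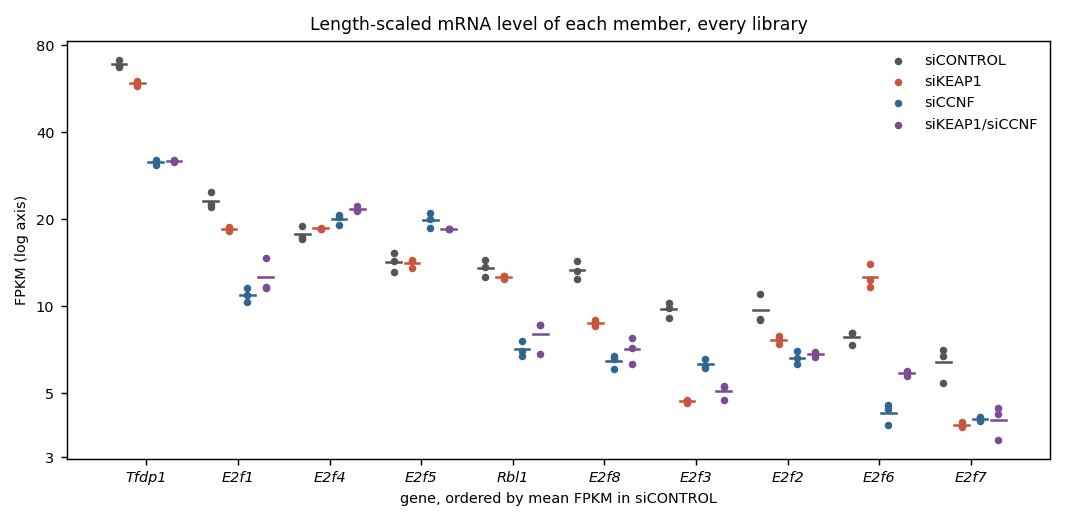
FPKM (reads scaled to gene length and library size, by the authors; log axis) of each member in every library, with points for the 3 libraries of a group and lines at their mean, for siCONTROL, siKEAP1, siCCNF and siKEAP1/siCCNF. Tfdp1 was highest in every group, and E2f4 and E2f5 passed E2f1 in both groups that received the Ccnf siRNA.

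What KEAP1 depletion does to the family was asked by comparing siKEAP1 with siCONTROL. E2f3, E2f7, E2f8, E2f2, E2f1 and Tfdp1 fell, E2f6 rose, and E2f4, E2f5 and Rbl1 did not pass the test. Thus 6 members were lower, where 20.2% of all 15122 genes tested were, and 1 was higher, where 20.4% were. E2f3 passed a 2-fold threshold as well, as did 11.5% of all genes. The 3 libraries of each group did not overlap for 7 members, and for 51.5% of all genes. The median log2 fold change was -0.28 over the members and -0.012 over all genes, with single members between -1.06 and 0.68.

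Depletion of CCNF moved all members. Tfdp1, E2f1, E2f8, Rbl1, E2f6, E2f7, E2f3 and E2f2 fell after siCCNF, and E2f5 and E2f4 rose. These were 8 lower members, where 25.5% of all genes were lower, and 2 higher ones, where 22.5% were. Of them E2f1, E2f8 and Tfdp1 also differed more than 2-fold (11.4% of all genes), and groups did not overlap for 10 members (56.4% of all genes). In siKEAP1/siCCNF cells the same 8 genes were lower and the same 2 higher than in siCONTROL, against 23.6% and 20.6% of all genes. Only Tfdp1 passed 2-fold there (10.3% of all genes), and 10 members did not overlap between the groups (48.4% of all genes). The comparisons with siCONTROL share its 3 libraries. The median log2 fold change over the members was -0.76 after siCCNF and -0.71 after siKEAP1/siCCNF, compared with 0.013 and 0.014 over all genes.

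**Figure D2:**
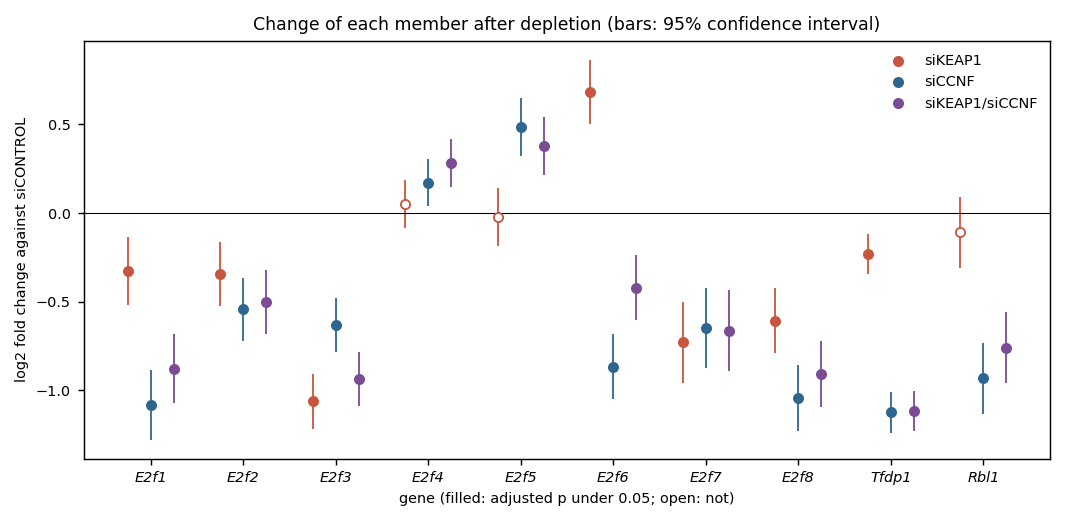
Log2 fold change against siCONTROL (vertical axis) of each member after siKEAP1, siCCNF and siKEAP1/siCCNF from 3 libraries a group, with points filled where the adjusted p was under 0.05 and bars for the 95% confidence interval. Only E2f6 lies above 0 after siKEAP1 and below 0 after siCCNF, and only E2f4 and E2f5 lie above 0 in both groups that received the Ccnf siRNA.

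The activators were lower in all depleted groups, though not to the same extent. E2f1 (ENSMUSG00000027490; chr2:154559407-154569892 of GRCm38, minus strand) encodes the activator best known for driving cells into S phase. Its libraries read 78.6, 70.0 and 72.2 CPM in siCONTROL, 59.3, 57.8 and 59.0 after siKEAP1, 32.8, 36.7 and 34.8 after siCCNF, and 36.6, 37.2 and 46.4 after siKEAP1/siCCNF. The siKEAP1 libraries thus lay between control and CCNF-depleted libraries without overlap, and replicate 3 was the highest of the siKEAP1/siCCNF libraries. Against siCONTROL the log2 fold change was -0.33 after siKEAP1 (SE 0.0894, adjusted p = 0.0102), -1.08 after siCCNF (SE 0.0905, adjusted p = 7.24e-07) and -0.88 after siKEAP1/siCCNF (SE 0.0904, adjusted p = 5.12e-06).

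E2f2 (ENSMUSG00000018983; chr4:136172394-136196057, plus strand), a second activator, read 54.2, 43.9 and 44.5 CPM in siCONTROL, 37.8, 36.2 and 38.5 after siKEAP1, 34.2, 32.6 and 31.2 after siCCNF, and 33.6, 34.3 and 32.7 after siKEAP1/siCCNF. All 9 depleted libraries were below all control libraries, of which replicate 1 was the highest. The log2 fold changes were -0.34 after siKEAP1 (SE 0.0829, adjusted p = 0.00474), -0.54 after siCCNF (SE 0.0826, adjusted p = 0.00013) and -0.50 after siKEAP1/siCCNF (SE 0.0829, adjusted p = 0.000274).

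E2f3 (ENSMUSG00000016477; chr13:29906575-29986063, minus strand) encodes the third activator, and its known activator and repressor isoforms were counted as 1 gene. It read 49.8, 56.1 and 54.1 CPM in siCONTROL and 25.8, 25.6 and 25.2 after siKEAP1, compared with 33.3, 34.0 and 36.0 after siCCNF and 28.7, 28.9 and 25.8 after siKEAP1/siCCNF. Among the activators it was the lowest after siKEAP1, at 47.8% of control, and its siCCNF libraries lay above all libraries that received the Keap1 siRNA. Its log2 fold change was -1.06 after siKEAP1 (SE 0.0722, adjusted p = 1.25e-07), -0.63 after siCCNF (SE 0.0706, adjusted p = 9.26e-06) and -0.94 after siKEAP1/siCCNF (SE 0.0716, adjusted p = 4.05e-07).

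The pocket-dependent repressors went the other way or did not pass the test. E2f4 (ENSMUSG00000014859; chr8:105297663-105305370, plus strand) read 46.7, 42.9 and 42.5 CPM in siCONTROL, 45.6, 45.9 and 45.5 after siKEAP1, 50.3, 51.4 and 47.2 after siCCNF, and 52.8, 53.2 and 54.5 after siKEAP1/siCCNF. The control and siKEAP1 libraries overlapped, and the siKEAP1/siCCNF libraries were above all others. The log2 fold change was 0.053 after siKEAP1 (95% confidence interval -0.082 to 0.19, adjusted p = 0.534), 0.17 after siCCNF (SE 0.0622, adjusted p = 0.0356) and 0.28 after siKEAP1/siCCNF (SE 0.0623, adjusted p = 0.0025). The small rise after siCCNF did not pass the test with total library sizes (log2 fold change 0.14, adjusted p = 0.0778) or when any of siCONTROL replicates 2 and 3, siKEAP1 replicate 3 and siCCNF replicates 1 and 2 was left out (adjusted p between 0.0558 and 0.114).

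E2f5 (ENSMUSG00000027552; chr3:14578641-14606309, plus strand) read 27.4, 23.4 and 25.9 CPM in siCONTROL and 25.6, 25.8 and 24.1 after siKEAP1, which overlap. It read 37.7, 36.2 and 33.5 CPM after siCCNF and 33.3, 33.2 and 33.1 after siKEAP1/siCCNF, and all of these libraries lay above all libraries without the Ccnf siRNA. The log2 fold change was -0.022 after siKEAP1 (95% confidence interval -0.19 to 0.14, adjusted p = 0.846), 0.48 after siCCNF (SE 0.0753, adjusted p = 0.000156) and 0.38 after siKEAP1/siCCNF (SE 0.0757, adjusted p = 0.00125).

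E2f6 (ENSMUSG00000057469; chr12:16810963-16839742, plus strand), the polycomb-linked repressor, was the only member called in opposite directions by the single depletions. Its libraries read 45.9, 46.0 and 42.1 CPM in siCONTROL, 66.4, 79.4 and 69.7 after siKEAP1, 22.1, 25.3 and 26.1 after siCCNF, and 33.6, 34.0 and 32.5 after siKEAP1/siCCNF. No group overlapped another, and the order from high to low was siKEAP1, siCONTROL, siKEAP1/siCCNF and siCCNF. The gene stood at 161% of control after siKEAP1 (log2 fold change 0.68, SE 0.0836, adjusted p = 2.46e-05), 54.8% after siCCNF (-0.87, SE 0.0851, adjusted p = 2.94e-06) and 74.7% after siKEAP1/siCCNF (-0.42, SE 0.0845, adjusted p = 0.00122). Leaving out any 1 library, the rise after siKEAP1 stayed between 0.60 and 0.73 on the log2 scale and the fall after siCCNF between -0.91 and -0.80.

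The atypical repressors were lower in every depleted group. E2f7 (ENSMUSG00000020185; chr10:110745439-110787384, plus strand) read 49.3, 60.7 and 64.4 CPM in siCONTROL, 35.8, 34.4 and 34.9 after siKEAP1, 37.0, 36.6 and 37.7 after siCCNF, and 38.3, 40.4 and 31.2 after siKEAP1/siCCNF. Its depleted groups lay at similar levels, and the lowest library of the control and of the siKEAP1/siCCNF group was in each case the library with the length trend. The log2 fold change was -0.73 after siKEAP1 (SE 0.106, adjusted p = 0.000106), -0.65 after siCCNF (SE 0.105, adjusted p = 0.000217) and -0.66 after siKEAP1/siCCNF (SE 0.105, adjusted p = 0.000205), and -0.85, -0.75 and -0.67 without these 2 libraries.

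E2f8 (ENSMUSG00000046179; chr7:48866429-48881596, minus strand) read 67.9, 78.5 and 72.6 CPM in siCONTROL, 46.7, 49.0 and 48.0 after siKEAP1, 33.0, 36.0 and 37.1 after siCCNF, and 42.7, 39.4 and 34.4 after siKEAP1/siCCNF. The siKEAP1 libraries lay below control and above all libraries with the Ccnf siRNA. Its log2 fold change was -0.61 after siKEAP1 (SE 0.0855, adjusted p = 8.32e-05), -1.04 after siCCNF (SE 0.0859, adjusted p = 6.19e-07) and -0.91 after siKEAP1/siCCNF (SE 0.0859, adjusted p = 2.48e-06).

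Tfdp1 (ENSMUSG00000038482; chr8:13338751-13378448, plus strand) encodes the DP partner that most E2F proteins need to bind DNA. It read 263, 251 and 249 CPM in siCONTROL, 213, 216 and 222 after siKEAP1, 113, 118 and 119 after siCCNF, and 116, 118 and 118 after siKEAP1/siCCNF. The groups with the Ccnf siRNA overlapped each other and lay far below the rest, at 45.9% and 46.1% of control. The log2 fold change was -0.23 after siKEAP1 (SE 0.052, adjusted p = 0.00315), -1.12 after siCCNF (SE 0.0527, adjusted p = 7.28e-09) and -1.12 after siKEAP1/siCCNF (SE 0.0528, adjusted p = 8.69e-09).

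Rbl1 (ENSMUSG00000027641; chr2:157145893-157204534, minus strand) encodes the pocket protein p107. It read 75.8, 87.0 and 83.0 CPM in siCONTROL, 74.5, 76.6 and 76.7 after siKEAP1, 40.4, 46.0 and 42.3 after siCCNF, and 51.9, 52.1 and 40.9 after siKEAP1/siCCNF. The control and siKEAP1 libraries overlapped through control replicate 1, and replicate 3 was the lowest of the siKEAP1/siCCNF libraries. Against siCONTROL the log2 fold change was -0.11 after siKEAP1 (95% confidence interval -0.31 to 0.090, adjusted p = 0.375), -0.93 after siCCNF (SE 0.0933, adjusted p = 3.48e-06) and -0.76 after siKEAP1/siCCNF (SE 0.0932, adjusted p = 2.36e-05). Without the 2 libraries that followed gene length, the siKEAP1 difference was -0.17 and passed the test (adjusted p = 0.0202). With the length trend removed from all libraries it was -0.19 (adjusted p = 0.0353).

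**Figure D3:**
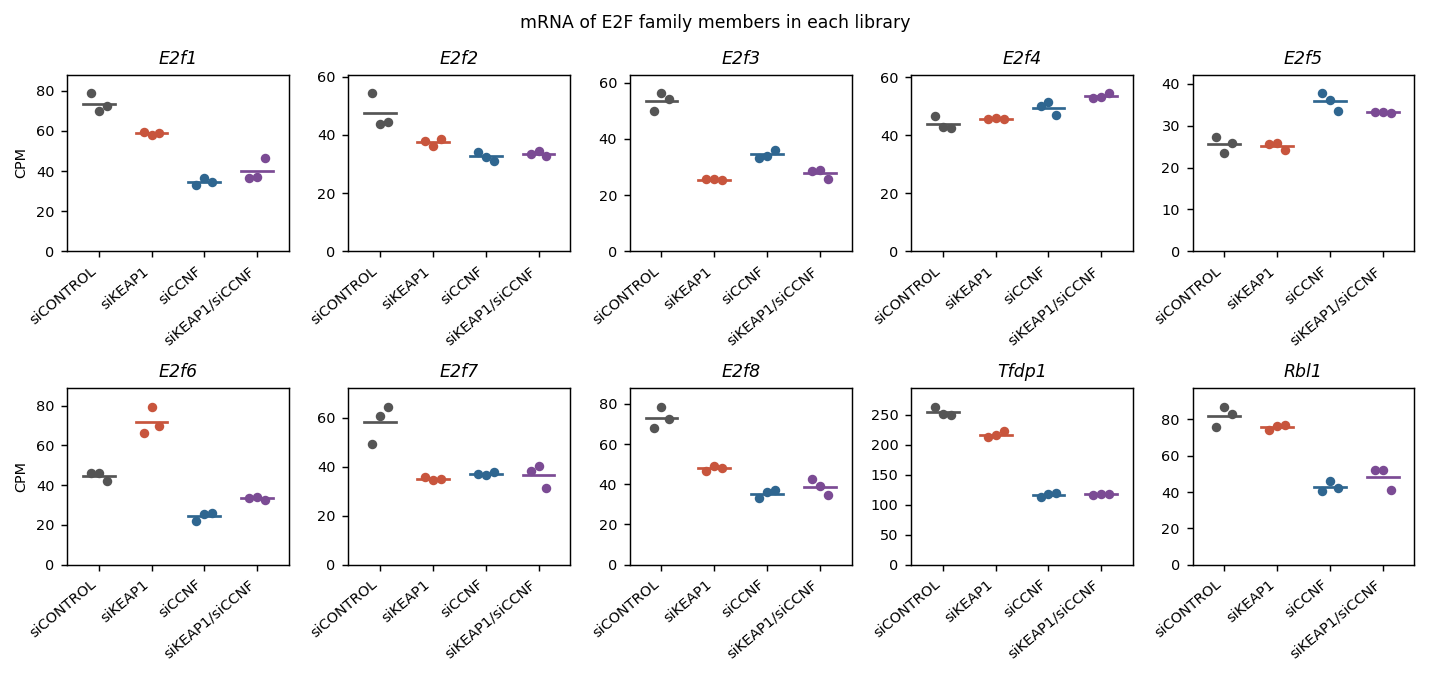
CPM (vertical axes, from 0) of each member in the 12 libraries, with 1 point a library and lines at the mean of the 3 libraries of siCONTROL, siKEAP1, siCCNF and siKEAP1/siCCNF. E2f6 alone is above its control libraries after siKEAP1 and below them after siCCNF, and the E2f3, E2f7 and E2f8 points of siKEAP1 lie below all control points.

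Whether KEAP1 depletion still changes the family in CCNF-depleted cells was asked by comparing siKEAP1/siCCNF with siCCNF. Of the members only E2f6 rose (log2 fold change 0.45, SE 0.0848, adjusted p = 0.00869) and only E2f3 fell (-0.31, SE 0.0711, adjusted p = 0.0252), where 3% and 2.19% of all genes did. The other 8 members did not pass the test, with log2 fold changes between -0.11 and 0.20 and, for E2f1, a 95% confidence interval of 0.0077 to 0.40. The 0.20 of E2f1 was 0.082 without siKEAP1/siCCNF replicate 3, its highest library in that group. The fall of E2f3 did not pass the test when any of the 6 libraries compared was left out (adjusted p between 0.0506 and 0.113), and the rise of E2f6 did not without siCCNF replicate 1 (log2 fold change 0.37, adjusted p = 0.0537). Without the 2 libraries that followed gene length, E2f8 (0.21, adjusted p = 0.0427) and Rbl1 (0.27, adjusted p = 0.00498) were higher in the double depletion as well, which made 4 called members in place of 2. Calls over all genes rose as well, from 454 higher and 331 lower of 15122 genes to 2186 of 15545 in either direction.

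The effect of CCNF depletion in KEAP1-depleted cells was asked by comparing siKEAP1/siCCNF with siKEAP1. There E2f6 (log2 fold change -1.11, SE 0.0841, adjusted p = 2.42e-07), Tfdp1 (-0.89, SE 0.0526, adjusted p = 2.84e-08), Rbl1 (-0.65, SE 0.093, adjusted p = 6.81e-05), E2f1 (-0.55, SE 0.0902, adjusted p = 0.000203) and E2f8 (-0.30, SE 0.0859, adjusted p = 0.00985) were lower. E2f5 (0.40, SE 0.0754, adjusted p = 0.000657) and E2f4 (0.23, SE 0.0621, adjusted p = 0.00797) were higher. These are 5 lower and 2 higher members, where 26.9% and 24.1% of all genes were lower and higher. E2f2, E2f3 and E2f7 did not pass the test (-0.16, 0.13 and 0.067). Without the 2 libraries with the length trend, E2f3 (0.18, adjusted p = 0.0174) and E2f7 (0.18, adjusted p = 0.0147) were called higher. There 9142 of 15545 genes were called in either direction, compared with 3651 higher and 4062 lower of 15122 with all libraries. With the length trend removed from all libraries, E2f3 (0.24, adjusted p = 0.00443) and E2f7 (0.19, adjusted p = 0.0166) were called as well. In that fit 8525 of 15122 genes were called.

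The dependence of the siKEAP1 effect on CCNF was tested as an interaction, that is, as the log2 difference of siKEAP1/siCCNF from siCCNF less the log2 difference of siKEAP1 from siCONTROL. It was positive and passed the test for E2f3 (0.76, SE 0.101, adjusted p = 0.000203), E2f8 (0.74, SE 0.121, adjusted p = 0.000849), E2f7 (0.71, SE 0.149, adjusted p = 0.00426), E2f1 (0.53, SE 0.127, adjusted p = 0.00976), E2f2 (0.38, SE 0.117, adjusted p = 0.0335) and Tfdp1 (0.24, SE 0.0738, adjusted p = 0.0359). The interaction and the comparison of siKEAP1 with siCONTROL share the same 6 libraries with opposite sign, so a member that was low after siKEAP1 is drawn towards a positive interaction. In all, 6 members had a higher interaction, where 10.6% of all genes did, and 0 had a lower one, where 10.5% did. For E2f7 the siKEAP1 effect went from -0.73 in control cells to -0.016 in CCNF-depleted cells, and for E2f3 from -1.06 to -0.31, the latter still below 0.

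E2f6 kept a positive siKEAP1 effect in both settings, 0.68 in control and 0.45 in CCNF-depleted cells, and its interaction of -0.24 did not pass the test (95% confidence interval -0.49 to 0.019, adjusted p = 0.186). For E2f4 (0.055), E2f5 (-0.086) and Rbl1 (0.28, adjusted p = 0.154) the interaction did not pass either. Without the 2 libraries with the length trend the interaction of Rbl1 was 0.45 (adjusted p = 0.00062) and 7 members were called. Over all genes 4806 of 15545 had a called interaction there, compared with 1599 higher and 1582 lower of 15122 with all libraries. With the length trend removed from all libraries the interaction of Rbl1 was 0.37 (adjusted p = 0.0141), where 4138 of 15122 genes had a called one. The calls of E2f2 and Tfdp1 are close to the threshold. E2f2 lost its call in 7 of the 12 fits that left out 1 library, namely those without any siKEAP1 replicate, siCCNF replicate 2 or 3, or siKEAP1/siCCNF replicate 1 or 2 (adjusted p between 0.0571 and 0.0897). Tfdp1 lost it in 9 of the 12, namely without siCONTROL replicate 2, any siKEAP1 or siCCNF replicate, or siKEAP1/siCCNF replicate 1 or 2 (adjusted p between 0.0564 and 0.0887). Keap1 mRNA was 24.1 ± 2.56 CPM in the double depletion and 12.6 ± 0.279 CPM after siKEAP1 (SD, n = 3), and the part of this difference in the interaction was not tested.

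**Figure D4:**
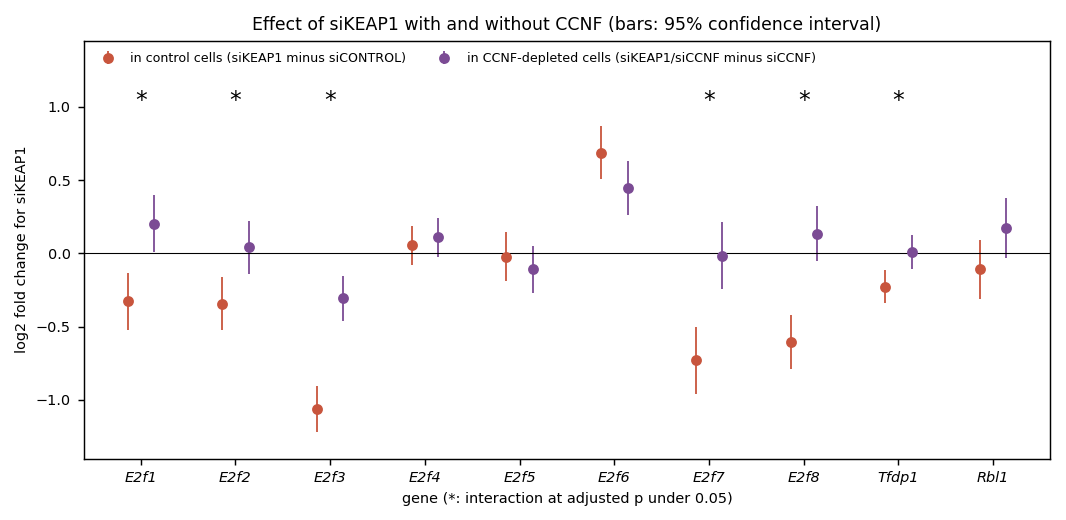
Log2 fold change for siKEAP1 (vertical axis) of each member in control cells (siKEAP1 minus siCONTROL) and in CCNF-depleted cells (siKEAP1/siCCNF minus siCCNF), with 3 libraries a group, bars for the 95% confidence interval and stars where the interaction had an adjusted p under 0.05. The 6 starred genes lie below 0 in control cells, and of them E2f3 alone has an interval wholly below 0 in CCNF-depleted cells.

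Of Tfdp2, Rb1 and Rbl2, which encode the second DP protein and the remaining pocket proteins, Rb1 rose after siKEAP1 (log2 fold change 0.27, adjusted p = 0.0265), while Rbl2 (0.26, adjusted p = 0.13) and Tfdp2 (-0.11, adjusted p = 0.524) did not pass the test. All 3 fell after siCCNF, Rb1 most with a log2 fold change of -1.47 (SE 0.0933), then Rbl2 with -0.54 and Tfdp2 with -0.42. Rb1 stood at 40.8 CPM in siCONTROL, 49.3 after siKEAP1, 14.7 after siCCNF and 15.8 in the double depletion (means of 3 libraries). In the double depletion Rb1 and Rbl2 were lower than in siCONTROL, Tfdp2 did not pass the test (-0.25, adjusted p = 0.11), and no interaction was called for any of them. Of all genes 20.4% were higher after siKEAP1, and 25.5% and 23.6% were lower after siCCNF and siKEAP1/siCCNF. Without the 2 libraries with the length trend, 1 of the 3 was lower after siKEAP1 and 3 were lower in the double depletion, and the interaction was higher for 1. In these comparisons 7558, 7589 and 4806 of all 15545 genes were called there in either direction.

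MuvB is the core complex that pairs with pocket proteins and E2F4 in resting cells and with MYBL2 and FOXM1 in dividing ones. Of its 8 genes and partners, 6 fell after siKEAP1, 8 after siCCNF and 6 in the double depletion, and 0 rose, with median log2 fold changes of -0.38, -0.58 and -0.45. Of all genes 20.2%, 25.5% and 23.6% were lower in these comparisons. Mybl2, a late cell-cycle activator, fell from 41.3 CPM to 19.3 after siKEAP1 (-1.10) and to 24.1 after siCCNF (-0.78). Foxm1, Mybl1 and Lin54 fell after siKEAP1 (-0.47, -0.49 and -0.26) and after siCCNF (-0.71, -0.71 and -0.61). The interaction was positive and called for 4 of the 8 genes, including Mybl2 (1.15) and Foxm1 (0.72), where 10.6% of all genes were higher. Without the 2 libraries with the length trend it was higher for 6, and called in either direction for 4806 of all 15545 genes.

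Of the 12 genes for proteins that work with E2F6 in polycomb complexes, none rose after siKEAP1, where E2f6 itself rose. In that group 5 fell and 7 did not pass the test, where 20.4% of all genes were higher and 20.2% lower. After siCCNF 1 rose, 4 fell and 7 did not pass, with a median of -0.0033, where 22.5% of all genes were higher and 25.5% lower. Rybp, a subunit of variant polycomb complexes, fell after siCCNF (-0.94) and in the double depletion (-1.01) as E2f6 did, and stood at 0.085 after siKEAP1 (adjusted p = 0.627). Cbx3, a heterochromatin protein, fell after siKEAP1 (-0.45) and siCCNF (-0.30). L3mbtl2 fell after siCCNF (-0.45), and Wdr5 rose after siCCNF (0.32) and fell after siKEAP1 (-0.22). In the double depletion 2 rose and 4 fell, and the interaction was higher for 2, where 20.6%, 23.6% and 10.6% of all genes were. With both libraries of the length trend left out, 2 rose after siCCNF, and 3 rose and 5 fell in the double depletion. The germline genes that E2F6 is known to silence, Stag3, Smc1b, Tuba3a, Tuba3b and Slc25a31, reached at most 9 counts in a library and a summed 0.37 CPM, and none passed the filter for testing.

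The pocket proteins are phosphorylated by cyclin-CDK complexes, which CDK inhibitors hold back. Of 16 cyclin, CDK and inhibitor genes 14 could be tested, and Cdkn2a and Cdkn2b had 0 counts in all libraries. After siKEAP1 2 rose and 9 fell, after siCCNF 2 rose and 7 fell, and after siKEAP1/siCCNF 0 rose and 8 fell, with medians of -0.45, -0.51 and -0.51. Of all genes 20.4% rose and 20.2% fell after siKEAP1, 22.5% and 25.5% after siCCNF, and 20.6% and 23.6% after siKEAP1/siCCNF, so the shares that rose are not above those of all genes. The 2 that rose after siKEAP1 were Ccnd1 (1.02), the cyclin that partners CDK4, and Cdkn1a (0.91), the inhibitor p21, named here after their values were seen. Ccnd1 read 223, 454, 103 and 131 CPM on average in siCONTROL, siKEAP1, siCCNF and siKEAP1/siCCNF, and, like E2f6, it rose after siKEAP1 and fell after siCCNF (-1.12). Ccne1, an E2F-responsive cyclin, fell after siKEAP1 (-1.32) and rose after siCCNF (0.27, adjusted p = 0.022). The second gene higher after siCCNF was the inhibitor Cdkn1b (0.26), also named after its value was seen. Cdk4 stood at -0.042 after siKEAP1 (adjusted p = 0.739) and fell after siCCNF (-1.59). Ccne2 fell after both (-0.48 and -1.15), and Cdkn1c fell after siKEAP1 (-1.61) from a mean of 11.4 CPM. The interaction was higher for 7 of these genes and lower for 2, where 10.6% and 10.5% of all genes were.

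Of 30 genes for G1/S and DNA replication known to respond to E2F, 17 fell and 1 (Dnmt1) rose after siKEAP1, 29 fell and 1 (Cdc25a) rose after siCCNF, and 26 fell and 1 (Cdc25a) rose after siKEAP1/siCCNF. These shares stand beside 20.2%, 25.5% and 23.6% of all genes that were lower, and 20.4%, 22.5% and 20.6% that were higher. Without the 2 libraries with the length trend, 18 fell and 2 rose after siKEAP1. Dnmt1 and Cdc25a are named after their values were seen. The medians were -0.28, -0.85 and -0.54, compared with -0.012, 0.013 and 0.014 over all genes. Mcm6 and Mcm5 of the replicative helicase fell after siKEAP1 (-0.17 and -0.31) and siCCNF (-1.41 and -1.28). Cdc6, a helicase loader, fell by 0.50 on the log2 scale after siKEAP1 and by 1.34 after siCCNF. In siKEAP1/siCCNF compared with siCCNF, 12 of the 30 were higher and 0 lower, where 3% and 2.19% of all genes were. Without the 2 libraries with the length trend 21 were higher, and 2186 of all 15545 genes were called in either direction. The interaction was higher for 20 of the 30 and lower for 0, where 10.6% and 10.5% of all genes were. It was higher for 25 without the 2 libraries, where 4806 of all 15545 genes had a called interaction. With all libraries the median interaction was 0.56, and 0.011 over all genes.

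**Figure D5:**
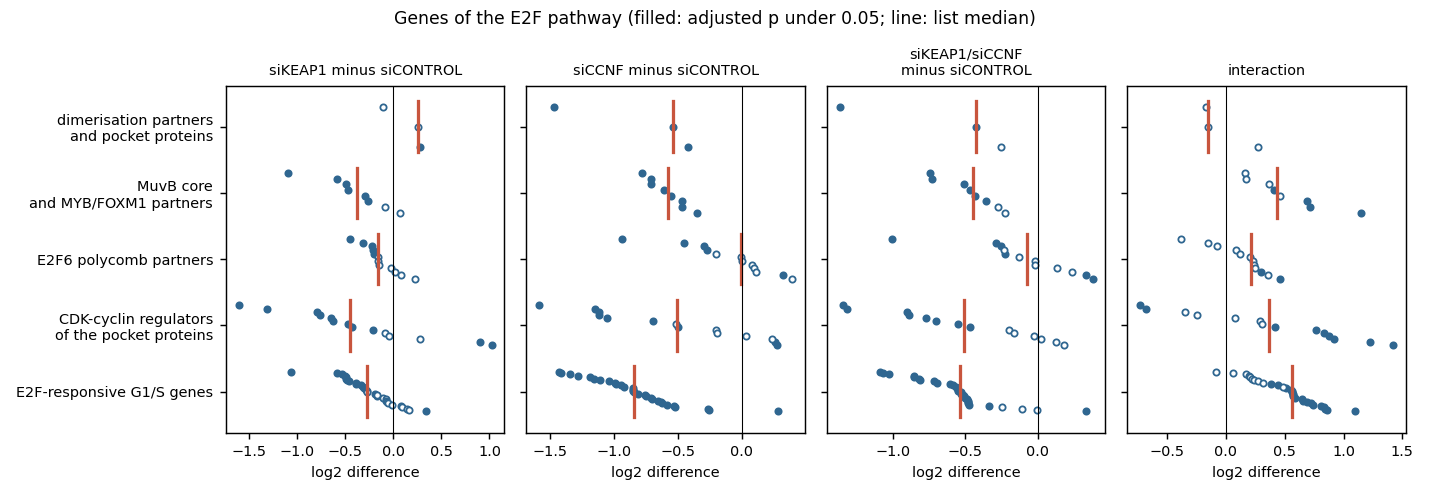
Log2 difference (horizontal axis) of each tested gene in 5 lists of the E2F pathway after siKEAP1, siCCNF and siKEAP1/siCCNF against siCONTROL and for the interaction, with points filled where the adjusted p was under 0.05 and a line at each list's median. Of the 30 E2F-responsive genes, 29 lie below 0 and pass the test after siCCNF, and 20 lie above 0 and pass it for the interaction.

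The proliferation and muscle markers of the libraries moved in the same comparisons as the members. The S phase list is not independent of the genes described so far, since 15 of its 43 genes are among the 30 E2F-responsive genes and 1, E2f8, is a member, whereas the G2/M list shares none with either. Summed S phase genes ran from 3908 to 3988 CPM in siCONTROL, 3229 to 3427 after siKEAP1, 2166 to 2335 after siCCNF and 2569 to 2688 after siKEAP1/siCCNF. Of these 43 genes, 25 were lower after siKEAP1, 38 after siCCNF and 36 in the double depletion, and for the interaction 26 were higher, with medians of -0.28, -0.83, -0.60 and 0.52. Of all genes 20.2%, 25.5% and 23.6% were lower in these comparisons and 10.6% had a higher interaction. Of 54 G2/M genes, 39, 52 and 45 were lower and 41 had a higher interaction, with medians of -0.42, -0.89, -0.64 and 0.68. In bulk RNA, fewer cycling cells and less of these mRNAs per cell cannot be told apart.

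Myoblast markers were lower for 5 of 6 genes after siKEAP1 and for 6 of 6 in both groups with the Ccnf siRNA. Without the 2 libraries with the length trend they were lower for 6 of 6 after siKEAP1 as well. After siKEAP1, siCCNF and siKEAP1/siCCNF, 20.2%, 25.5% and 23.6% of all genes were lower. The summed myoblast markers ran from 4687 to 5134 CPM in siCONTROL, 3860 to 4037 after siKEAP1, 2785 to 2881 after siCCNF and 2744 to 2983 after siKEAP1/siCCNF. Myod1 and Cdh15 fell after siKEAP1 (-1.73 and -1.71) and siCCNF (-1.58 and -1.63), as did Myf5 (-1.05 and -1.55) and Itga7 (-0.41 and -1.44). Early myotube genes, of which 7 of 10 could be tested, were lower for 7, 6 and 7 genes after siKEAP1, siCCNF and siKEAP1/siCCNF, beside the same shares of all genes. The sum of the myotube genes was 61.7 to 146 CPM in siCONTROL, with replicate 1 the highest, 3.11 to 3.36 after siKEAP1, 18.3 to 27.6 after siCCNF and 6.56 to 8.25 after siKEAP1/siCCNF. Myog, which starts the differentiation programme, had means of 45.3, 0.175, 8.12 and 1.76 CPM in these groups, Mymk 10.6, 0.448, 1.22 and 0.311, Actc1 12.95, 0.0757, 4.11 and 0.897, and Myh3 4.64, 0.135, 2.27 and 0.578. The part of the cell-cycle and muscle markers in the values of the members was not tested.

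Of the remaining marker lists, Cebpa stood at 0.037 after siKEAP1 (adjusted p = 0.83) and fell after siCCNF (-1.31), and Fabp4 rose after siKEAP1 from a mean of 0.0832 to 2.64 CPM. Cd68 rose from 0.997 CPM to 7.34 after siKEAP1 and 2.37 after siCCNF, Alpl from 0.147 CPM to 2.28 after siCCNF, and Tek from 0.0982 to 0.612 after siKEAP1, while Cdh1 rose from 0.252 to 0.949 CPM after siCCNF. After siKEAP1 Alpl stood at 0.607 CPM (adjusted p = 0.0233), a call that was lost without the 2 libraries with the length trend.

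Genes with a pattern like that of a member were sought for E2f1, which fell in all depleted groups, and for E2f5, which rose in both groups with the Ccnf siRNA. Likeness was Pearson's r of log2 CPM over the 12 libraries among 9992 genes, and since the libraries fall into 4 groups it mostly reflects the group means. Closest to E2f1 were Nrm (r = 0.990), Commd10 (0.989), Mogs (0.989), Pck2 (0.988) and Ranbp1 (0.985). Closest to E2f5 were Becn1 (0.989), Tor2a (0.976), Tmem234 (0.971), Ppib (0.971) and Rnf114 (0.971). Nrm fell more than E2f1 in each group, with log2 fold changes of -0.45, -1.61 and -1.29 after siKEAP1, siCCNF and siKEAP1/siCCNF, and Becn1 followed E2f5 with -0.043 (adjusted p = 0.619), 0.44 and 0.33.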

How the data were processed

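Polyadenylated RNA of C2C12 cells was sequenced in 12 libraries, 3 biological replicates in each of 4 groups. The authors deposited raw counts for each gene and library, and FPKM values. HISAT2 and GRCm39 are named in the submitters' processing notes, but the table's coordinates equal those of GRCm38. The counting tool and annotation are not given in the sources used here. Deposited columns with the authors' own comparisons (fold changes and p-values) were not used.

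Counts were fitted with edgeR 4.0.16 in R 4.3.3 (filterByExpr, 15122 genes, TMM, quasi-likelihood model with 4 group means, code tested on simulated data). Calls were made at a Benjamini-Hochberg adjusted p under 0.05 over all genes tested, from 18464209 to 37743198 counts a library. FPKM served to compare levels between genes and, as log2(FPKM + 1), for limma 3.58.1. Other alternatives were DESeq2 1.42.0, total library sizes, no filter beyond 1 count in total, at least 10 counts in every library, a replicate block, the compared groups only, a 2-fold threshold, a gene length trend removed by a spline with 5 degrees of freedom, each library left out, and siCONTROL replicate 1 with siKEAP1/siCCNF replicate 3 left out. The last, combined with total library sizes or applied to the lists, was chosen after seeing the data.

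Members and lists were chosen with earlier results of these data known. Named are all members, both siRNA targets, every gene of lists of up to 3 genes, otherwise up to 4 called genes with the largest change after siKEAP1 or siCCNF, and the 5 genes most like E2f1 and E2f5 (mean log2 CPM of at least 3). Some genes that this rule or the lists hold are not reported here. S phase and G2/M genes came with Seurat 5.3.0, and promoter windows from RefSeq.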

Additional observations from a re-analysis of the deposited data

Results flagged for a closer look

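The effect of siKEAP1 differed between CCNF-depleted and control cells, by the interaction term of the edgeR model, for 6 members. Of all genes 10.6% had a higher interaction and 10.5% a lower one. The interaction shares the siKEAP1 and siCONTROL libraries with the siKEAP1 effect in control cells, with opposite sign. The interaction was 0.76 on the log2 scale for E2f3, 0.74 for E2f8, 0.71 for E2f7, 0.53 for E2f1, 0.38 for E2f2 and 0.24 for Tfdp1. The calls of E2f2 and Tfdp1 were lost in 7 and 9 of the 12 fits that left out 1 library. The siKEAP1 effect in control cells was -1.06, -0.61, -0.73, -0.33, -0.34 and -0.23 for these genes, and in CCNF-depleted cells it was -0.31, 0.13, -0.016, 0.20, 0.040 and 0.0083. The 0.20 of E2f1 was 0.082 without siKEAP1/siCCNF replicate 3. The S phase and G2/M genes, which moved in the same direction, and the weaker loss of Keap1 mRNA in the double depletion are given with the comparisons above, and their part was not tested.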

How the results depend on the processing

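Under the alternatives, 1255 of the values recomputed for single members and comparisons kept their side of the threshold, of which 1240 also kept their sign and 15 were uncalled values that changed it. Another 37 lost their call, 18 gained one, and 0 changed direction while called. With no filter beyond 1 count in total, 4 members had a called interaction, and E2f2 (adjusted p = 0.0613) and Tfdp1 (adjusted p = 0.216) did not. Over all genes 3266 of 28084 had a called interaction there. With a 2-fold threshold added, 1 member was called after siKEAP1, 3 after siCCNF, 1 after siKEAP1/siCCNF, 0 for siKEAP1/siCCNF against siCCNF and 1 for siKEAP1/siCCNF against siKEAP1. Of all genes 11.5%, 11.4% and 10.3% passed it after siKEAP1, siCCNF and siKEAP1/siCCNF. For siKEAP1/siCCNF against siCCNF, where 2 members were called, 1 was called with no filter beyond 1 count in total and 1 with the compared groups only, and 4 were called without the 2 libraries with the length trend, on TMM or total library sizes. Without these libraries 2186 (TMM) and 2233 (total library sizes) of 15545 genes were called. With all libraries and TMM 454 of 15122 were higher and 331 lower. With no filter beyond 1 count in total 945 of 28084 genes were called, and with the compared groups only 516 of 14644. With each library left out, the number called stayed at 7 after siKEAP1 and 10 after siKEAP1/siCCNF, and ranged from 9 to 10 after siCCNF, 0 to 2 for siKEAP1/siCCNF against siCCNF, 7 to 8 for siKEAP1/siCCNF against siKEAP1 and 4 to 7 for the interaction. Over all genes, calls in these fits ranged from 363 to 1404 for siKEAP1/siCCNF against siCCNF and from 2429 to 3397 for the interaction. The 0 arose without siCCNF replicate 1, where 363 of 15350 genes were called. The cause of these changes was not tested. Deviations of the 18 same-numbered pairs of libraries correlated between -0.268 and 0.204 (median 0.041). Those of the 36 pairs with unlike numbers correlated between -0.276 and 0.390 (median -0.0054). These ranges overlap, so whether replicate numbers pair the libraries is not decided by them. A replicate block left 7, 9, 10, 2, 7 and 5 called members in the comparisons in this order (siKEAP1, siCCNF and siKEAP1/siCCNF against siCONTROL, siKEAP1/siCCNF against siCCNF and against siKEAP1, and the interaction). Under it E2f4 after siCCNF (0.17, adjusted p = 0.052) and the interaction of Tfdp1 (0.24, adjusted p = 0.064) were no longer called. Of all 15122 genes 5953, 7081, 6509, 642, 7554 and 2964 were called with the block, in the same order of comparisons. With 3 libraries a group, differences such as the 0.17 of E2f4 lie at the limit of what was called.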
